A study of Mus musculus with 27 samples.

Results

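The cerebellum of mouse pups was compared between postnatal day 20 (P20) and postnatal day 10 (P10) with a PCR array for genes of synaptic plasticity. All cerebellum pools of these ages were taken, 3 at P10 and 3 at P20, which is 6 of the 27 pools of the study. Each pool held 2 µg of RNA from each of 5 male Swiss Webster mice of an outbred germ-free colony. The 3 pools of an age came from germ-free mice (GF), conventionalized mice (CONV) and mice given bifidobacteria (BIF). GF pups were gavaged with sterile phosphate buffered saline. CONV pups also received saline and were colonized through dams given fecal slurry from specific pathogen free mice and through used bedding. BIF pups were gavaged with *Bifidobacterium dentium*, *Bifidobacterium longum* subspecies *infantis*, *Bifidobacterium breve* and *Bifidobacterium bifidum*. Each treatment had its own isolator. Pools of different mice of the same treatment were set against each other across age, which gave 3 pairs and no replicate within a treatment. A p-value here therefore measures the change with age against its spread between treatments. All P10 cerebellum pools were run on plate 3 and all P20 cerebellum pools on plate 6, so age and plate cannot be told apart.

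The cerebellum of rodents is largely built after birth. Over these days granule cells are still being made in the outer layer and migrate inward, parallel fibers form synapses on growing Purkinje cell dendrites, and surplus climbing fibers are removed. Glutamate drives most of these synapses through AMPA and NMDA receptors, which are ion channels, and through metabotropic receptors, which act through G proteins. The makeup of these receptors is known to shift as granule cells mature.

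The threshold cycle (CT) is the PCR cycle at which a well turns positive, and it falls by about 1 for each doubling of template. The relative level used here is the mean CT of *B2m*, *Gapdh*, *Gusb* and *Hsp90ab1* in a pool minus the CT of the gene, on a log2 scale, so higher means more transcript. Levels of different genes were not compared with each other. Of the 84 pathway genes, 37 were higher and 18 lower at P20 at an adjusted p under 0.05 in a limma fit with treatment as a block, which is 65.5% of the genes tested. A further 3 passed only before adjustment. The median change of the 84 genes was 0.27, with 0.31 (GF), 0.28 (CONV) and 0.19 (BIF). In 65 genes all 3 pairs moved in 1 direction, 44 upward and 21 downward. The pools of the 2 ages did not overlap in 59 genes, or 70.2%. With 3 pools against 3, an exact permutation test of a single gene cannot go below p = 0.1, and a sign test of 3 pairs not below 0.25.

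Which genes count as higher depended on the reference. Relative to the mean of the 4 reference genes, *Gapdh* rose by 0.45, 0.64 and 0.37 in the GF, CONV and BIF pairs and *B2m* by 0.40, 0.26 and 0.46. *Hsp90ab1* fell by 0.52, 0.43 and 0.48, and *Gusb* fell by 0.32, 0.47 and 0.34. *Actb*, left out of the reference, fell by 1.17, 0.98 and 1.41. The study itself normalized to *Gapdh* alone, which it judged the most stable of its reference genes. With *Gapdh* alone the median of the 84 genes moved to -0.22 and the split to 24 higher and 33 lower. Without *Gusb* the split was 29 and 22, and without *Hsp90ab1* it was 27 and 21. Over the 8 references tried the median ran from -0.22 to 0.50. Under all 8, 24 genes were called higher and 12 lower.

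**Figure D1:**
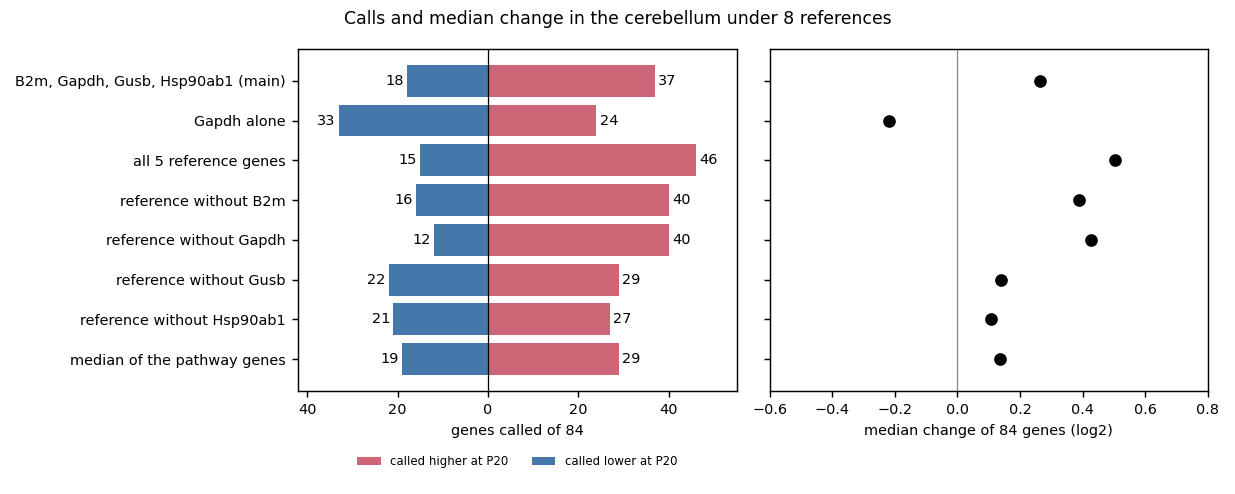
Left, number of the 84 pathway genes called higher (right of 0) or lower (left of 0) at P20 than at P10 in the cerebellum under 8 references for the CT. Right, median change of the 84 genes on the log2 scale, which is below 0 only with *Gapdh* alone (-0.22) and highest with all 5 reference genes (0.50).

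NMDA receptor subunits changed in opposite directions. Of the 5 subunit genes, 3 were called higher and 1 lower, with a median of 0.69. *Grin2b*, which encodes the subunit typical of immature synapses, stood at -2.17, -2.51 and -2.15 at P10 (GF, CONV and BIF, an order kept below) and at -5.49, -5.20 and -5.13 at P20. All P20 pools lay below all P10 pools, and the transcript was 7.98-fold lower at P20 (log2 change -3.00 ± 0.16, SE, n = 3 pairs, limma adjusted p = 0.000534). At P4 it stood at -3.00, -3.28 and -3.21. *Grin2c*, the subunit of mature granule cells, was at -2.96, -3.93 and -3.99 at P10 and at -1.10, -0.94 and -1.15 at P20. That is 5.92-fold higher at P20, with no overlap of the ages (2.57 ± 0.25, adjusted p = 0.00178). The P10 pools of *Grin2c* were spread over about 1 cycle while the P20 pools lay close together, and the rise was 1.87 in the GF pair against 3.00 and 2.84 in the CONV and BIF pairs. At P4 its values were -7.48, -7.39 and -7.53. *Grin2a*, whose product joins NMDA receptors as synapses mature, rose 3.00-fold, from -3.38, -4.19 and -3.79 to -2.18, -2.15 and -2.28 (1.59 ± 0.19, adjusted p = 0.00256). *Grin1*, the subunit all NMDA receptors share, rose by 0.69 ± 0.14 (adjusted p = 0.0128) in 3 of 3 pairs, and this call was lost with *Gapdh* alone. *Grin2d* gave -0.03, 0.21 and -0.44 and did not pass the test (adjusted p = 0.694). Its mean of -0.09 became 0.15 with all 5 reference genes and -0.57 with *Gapdh* alone, where it was called lower (adjusted p = 0.0156).

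Among the 4 AMPA receptor subunits, 3 were higher and 0 lower, with a median of 0.82. *Gria1*, *Gria3* and *Gria4* rose by 0.86 ± 0.09, 0.90 ± 0.10 and 0.78 ± 0.10 (adjusted p = 0.00229, 0.00229 and 0.00293), and none of their P10 and P20 pools overlapped. *Gria2*, whose subunit keeps calcium out of the channel, stood at -0.34, -0.58 and -0.19 at P10 and at -0.05, -0.34 and -0.24 at P20. The 2 sets overlapped, and the change of 0.16 ± 0.12 did not pass the test (adjusted p = 0.259). With *Gapdh* alone *Gria2* was called lower, at -0.32, and with all 5 reference genes higher, at 0.40, while *Gria1*, *Gria3* and *Gria4* were called higher under all 8 references. The wells of *Gria1*, *Gria3* and *Gria4* were named by their place in the array order alone.

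**Figure D2:**
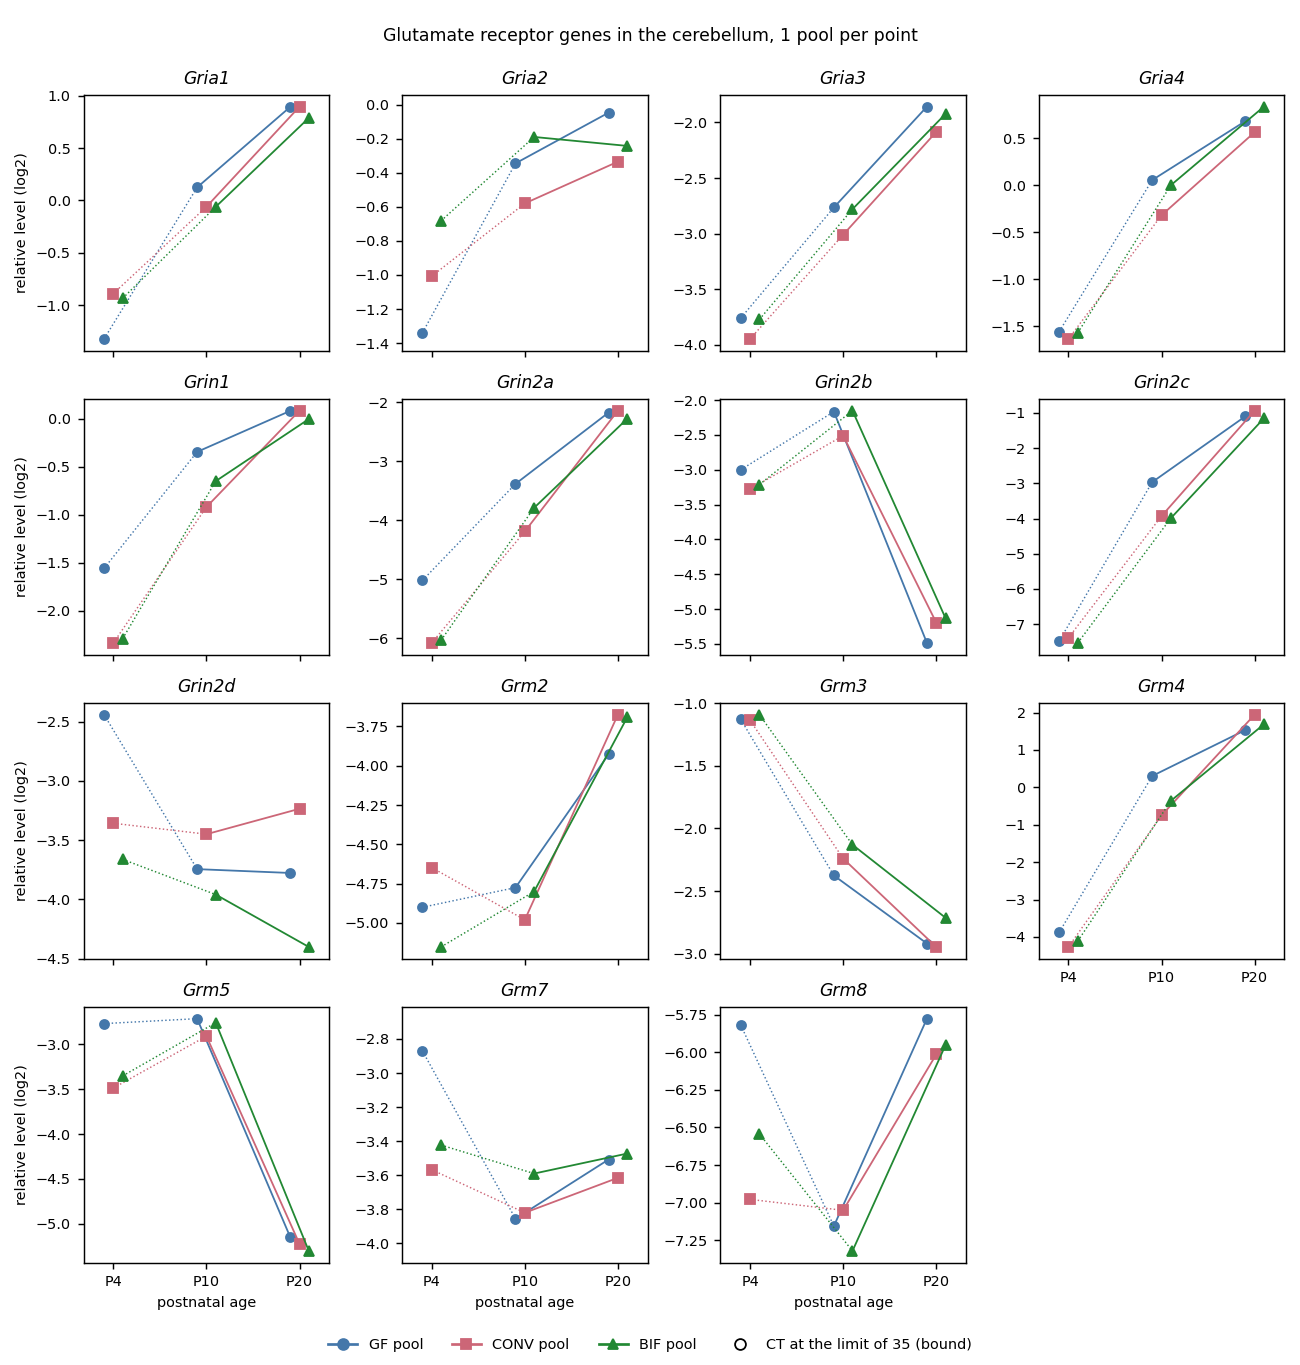
Relative level on the log2 scale of 15 glutamate receptor genes in the cerebellum at P4, P10 and P20, with 1 point per pool, and solid lines joining the P10 and P20 pools of a treatment (dotted lines, P4 to P10). *Grin2b* and *Grm5* drop from P10 to P20 in all 3 treatments, to levels between -5.49 and -5.13, while *Grin2a*, *Grin2c* and *Grm4* rise.

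Of the 6 metabotropic glutamate receptor genes described here, 3 were higher and 2 lower, with a median of 0.66. *Grm5*, whose receptor acts through Gq, stood at -2.71, -2.91 and -2.76 at P10 and at -5.15, -5.22 and -5.30 at P20. It was 5.39-fold lower at P20 with a fall of nearly the same size in each pair (-2.43 ± 0.11, adjusted p = 0.000534). *Grm4*, the group III receptor of parallel fiber terminals, rose 3.97-fold, from 0.31, -0.75 and -0.36 to 1.53, 1.95 and 1.69 (1.99 ± 0.29, adjusted p = 0.00387). Its P10 pools differed by more than 1 cycle, and the rise was 1.23 (GF), 2.70 (CONV) and 2.05 (BIF). *Grm8*, also of group III, rose by 1.26 ± 0.15 (adjusted p = 0.00256), from -7.16, -7.05 and -7.32 at P10 to -5.78, -6.01 and -5.95. At P4 it stood at -5.82, -6.98 and -6.54. *Grm2*, found in Golgi cells, rose by 1.09 ± 0.14 (adjusted p = 0.00277). *Grm3* fell by 0.61 ± 0.11 (adjusted p = 0.00729), in 3 of 3 pairs. *Grm7* gave 0.22 ± 0.11 (adjusted p = 0.146), and -0.26 with *Gapdh* alone, but was called higher under 3 of the 8 references (0.46 with all 5).

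The other 5 receptor genes all passed the test, 2 upward and 3 downward, with a median of -0.56. *Ngfr*, the p75 neurotrophin receptor known from dividing granule cell precursors and young Purkinje cells, had the largest fall of the 84 genes. Its level was -3.71, -3.22 and -3.31 at P10 and -6.74, -7.17 and -6.95 at P20. This is an 11.6-fold fall, larger than 3 cycles in every pair (-3.54 ± 0.21, adjusted p = 0.000565). *Gabra5*, a GABA-A receptor subunit, fell 3.51-fold, with changes of -0.93 (GF), -2.08 (CONV) and -2.41 (BIF) (-1.81 ± 0.32, adjusted p = 0.00802). *Cnr1*, the cannabinoid receptor of parallel fiber terminals, rose 2.39-fold, with pairs between 1.14 and 1.47 (1.26 ± 0.11, adjusted p = 0.00164). *Ntrk2*, the receptor for BDNF, rose by 0.31 ± 0.09 (adjusted p = 0.0365), but was called under only 4 of the 8 references, with -0.17 for *Gapdh* alone. It was not called without the GF or the BIF pair (adjusted p = 0.225 and 0.214). In whole tissue, fewer cells of a type and less RNA per cell cannot be told apart, for *Ngfr* as for every gene here.

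Neurotrophins, growth factors and cytokines held 1 higher and 2 lower genes of 7, with a median of -0.54. *Bdnf* had the largest rise on the array. It stood at -6.22, -6.92 and -7.20 at P10 and at -3.43, -3.98 and -3.62 at P20, with the P20 pools more than 2 cycles above the highest P10 pool. The rise was 8.59-fold (3.10 ± 0.19, adjusted p = 0.000565). At P4 it stood at -5.86, -7.70 and -7.60. *Ntf3*, encoding neurotrophin-3 and made by granule cells, fell by 1.02 (GF), 0.17 (CONV) and 1.09 (BIF) (-0.76 ± 0.22, adjusted p = 0.0326). This call was lost without the BIF pair (adjusted p = 0.105) and under 2 of the 8 references. *Igf1*, named by place in the array order, fell by 0.82 ± 0.12 (adjusted p = 0.00387), with pairs from -0.94 to -0.73. *Ntf5* gave 1.66, 0.41 and -0.07, at CTs up to 34.51, and did not pass (adjusted p = 0.212). *Tnf* was at the detection limit, a CT of 35, in the GF pools of both ages, so the GF pair gives no change. In the CONV pools its CT went from 31.90 to 34.57 and in the BIF pools from 33.09 to 34.59, and the test over all pairs did not pass (adjusted p = 0.161). Without the GF pair it did (adjusted p = 0.0212).

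Immediate early genes respond within minutes to neuronal activity. Of the 9 on the array, 6 were higher and 1 lower, beside 37 and 18 of all 84 genes. The median was 1.04 beside 0.27 for all genes. With *Gapdh* alone, without *Gusb* or without *Hsp90ab1* only 4 were called higher, and the median ran from 0.56 to 1.28 over the 8 references. *Egr4* rose 3.85-fold, from -7.36, -7.89 and -7.55 to -5.79, -5.67 and -5.50 (1.95 ± 0.18, adjusted p = 0.00178). *Egr1* rose 2.74-fold, with pairs from 1.25 to 1.62 (1.46 ± 0.13, adjusted p = 0.00164). *Egr2* fell by 0.78, 0.79 and 0.83 in the GF, CONV and BIF pairs, while its relatives *Egr1* and *Egr4* rose. Its CTs were from 29.57 to 31.75, and the call (-0.80 ± 0.17, adjusted p = 0.0141) was lost without the GF or the BIF pair (adjusted p = 0.085 and 0.107), with the change still at -0.81 and -0.78. *Egr3* gave -0.20, -0.62 and 0.45 (adjusted p = 0.74), and its mean of -0.13 turned to 0.11 with all 5 reference genes. *Junb* and *Arc* were also higher, by 1.16 ± 0.19 and 1.04 ± 0.19 (adjusted p = 0.00654 and 0.00869), in 3 of 3 pairs each, and the call of *Junb* was lost without the BIF pair (adjusted p = 0.0519). *Jun*, named by place, was higher by 0.57 ± 0.17 (adjusted p = 0.0367), but was called under only 4 of the 8 references.

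*Fos* had the widest spread between treatments of the genes with all CTs below 35. It stood at -5.20, -4.55 and -5.28 at P10 in the GF, CONV and BIF pools and at -3.51, -5.33 and -3.13 at P20. The GF and BIF pairs rose by 1.69 and 2.15 and the CONV pair stood at -0.79, and the mean of 1.02 did not pass the test (adjusted p = 0.192). It passed when the GF or the CONV pair was left out. *Nr4a1* followed the same order, with 1.59 and 1.75 in the GF and BIF pairs and 0.17 in the CONV pair. It passed the test (1.17 ± 0.34, adjusted p = 0.0363), but not without the BIF pair (adjusted p = 0.075). It was also lost under 3 of the 8 references, namely *Gapdh* alone (adjusted p = 0.185), without *Gusb* (0.0557) and without *Hsp90ab1* (0.0667). *Plat*, which encodes tissue plasminogen activator, gave 0.16 (GF), -1.59 (CONV) and -0.36 (BIF) (adjusted p = 0.192, and 0.00141 without the GF pair). *Nfkbib* gave -0.81, 0.99 and 0.14 (adjusted p = 0.823), and *Ntf5* is given above. With 1 pool per treatment and age, differences between the pairs were not tested.

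**Figure D3:**
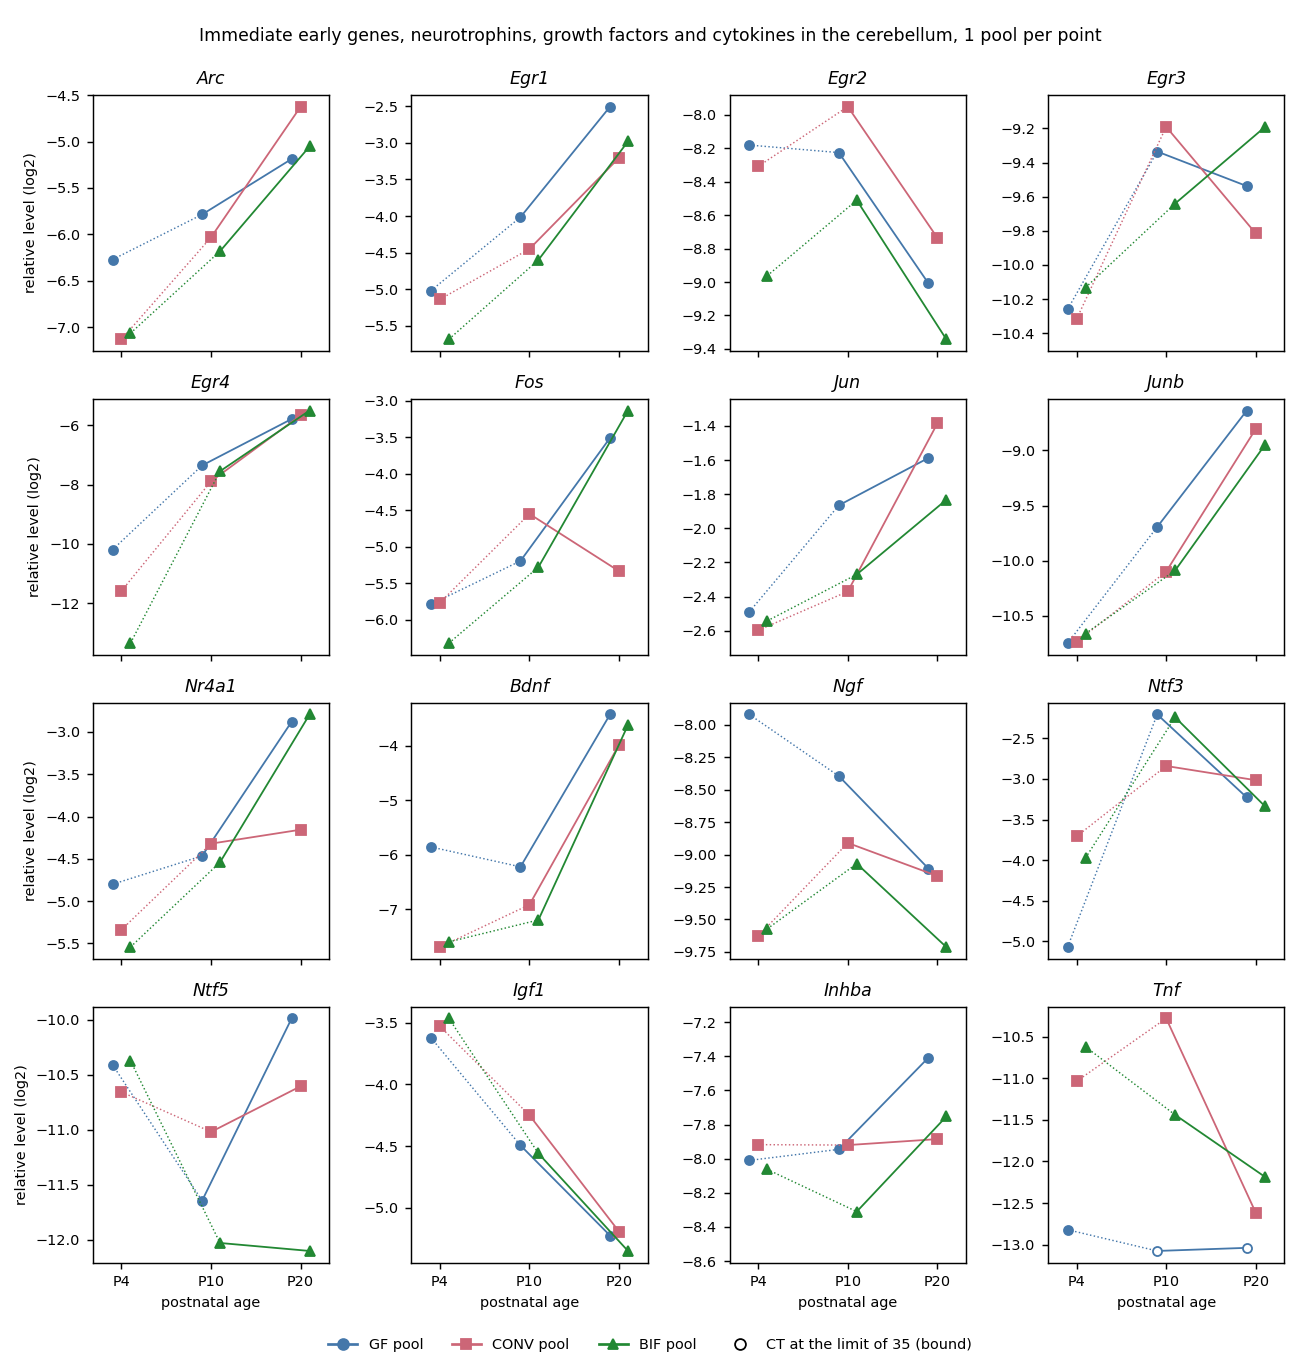
Relative level on the log2 scale of 9 immediate early genes and 7 neurotrophin, growth factor and cytokine genes in the cerebellum, with 1 point per pool at P4, P10 and P20. Open points are pools at the CT limit of 35, where the level is an upper bound, and the CONV pool of *Fos* at P20 (-5.33) lies below the GF and BIF pools (-3.51 and -3.13).

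The bases before the start sites of some genes that rose are shown for a motif known from early genes. Many early genes are known targets of CREB, which binds the cyclic AMP response element TGACGTCA and its core TGACG. On the opposite strand the core reads CGTCA. RefSeq promoter windows of 250 bases were found for 55 of the 84 array genes and 6 of the 9 early genes. Counted by gene, the core was in at least 1 window of 5 of these 6, namely *Egr2*, *Egr4*, *Fos*, *Junb* and *Nr4a1*, and not in that of *Jun*, whose well was named by place. Among all 32851 windows it occurred in 17.8%, and among the 81 windows of array genes in 30.9%. These are shares of windows and are not comparable with the count by gene, since *Egr2* had 5 windows, of which 3 held the core. A share by gene was not counted over the other genes. The 5 of 6 therefore has no background and does not show that the core is more frequent in early genes. The full element was in 1.55% of all windows and in none of the early genes or *Bdnf*. The core was thus also in windows of *Egr2*, which fell, and of *Fos*, which did not pass. It was absent from the window of *Jun*, which was called higher. Windows with the core follow for 3 early genes called higher and for *Bdnf*, which is not of that list and was added for its rise. Of the 7 windows of *Bdnf*, only the 1 shown held the core. Other array genes with the core are not shown. The windows are given on build GRCm38.p6, read 5′ to 3′ on the gene's strand, with the core in capitals. They lie at chr6:85513590-85513839 on the minus strand (*Egr4*), chr8:84978749-84978998 on the minus strand (*Junb*), chr15:101266596-101266845 on the plus strand (*Nr4a1*) and chr2:109692186-109692435 on the plus strand (*Bdnf*, 1 of its 7 start sites).
Egr4: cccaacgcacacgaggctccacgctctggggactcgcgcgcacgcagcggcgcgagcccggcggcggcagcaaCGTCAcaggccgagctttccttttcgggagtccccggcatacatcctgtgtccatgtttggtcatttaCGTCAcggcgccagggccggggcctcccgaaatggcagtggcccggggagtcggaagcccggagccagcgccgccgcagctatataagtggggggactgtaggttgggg
Junb: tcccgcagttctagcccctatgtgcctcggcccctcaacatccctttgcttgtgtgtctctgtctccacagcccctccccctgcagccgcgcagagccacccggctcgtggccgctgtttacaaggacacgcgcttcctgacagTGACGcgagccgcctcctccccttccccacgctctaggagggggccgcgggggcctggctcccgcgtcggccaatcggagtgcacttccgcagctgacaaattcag
Nr4a1: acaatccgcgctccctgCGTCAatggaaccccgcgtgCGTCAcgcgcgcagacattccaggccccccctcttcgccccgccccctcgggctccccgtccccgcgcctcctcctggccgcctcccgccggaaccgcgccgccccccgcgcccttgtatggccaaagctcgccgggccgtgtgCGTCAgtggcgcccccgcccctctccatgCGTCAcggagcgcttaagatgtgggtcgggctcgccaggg
Bdnf: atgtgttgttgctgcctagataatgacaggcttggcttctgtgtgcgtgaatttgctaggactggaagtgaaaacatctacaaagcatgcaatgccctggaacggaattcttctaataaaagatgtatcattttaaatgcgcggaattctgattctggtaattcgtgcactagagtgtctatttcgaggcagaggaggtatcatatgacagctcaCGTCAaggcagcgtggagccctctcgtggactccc
The core occurs 2 times in the *Egr4* window, 4 times in that of *Nr4a1* and once in those of *Junb* and *Bdnf*. A match describes the letters only, and no binding was measured.

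Of 10 other transcription regulators, 2 were higher and 2 lower, with a median of 0.08. *Cebpd*, a C/EBP factor that responds to cytokines and hormones, rose 3.52-fold, by 2.32 (GF), 1.17 (CONV) and 1.97 (BIF) (1.82 ± 0.25, adjusted p = 0.00351). *Klf10*, a gene induced by TGF-beta, fell by 0.62, 0.77 and 1.51 (-0.97 ± 0.21, adjusted p = 0.0157). The other 6 ran from -0.01 to 0.31 and did not pass. The direction of this list is set by the reference, since its median ran from -0.40 to 0.32 over the 8 tried.

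Kinases, cyclases and signal transducers held 6 higher and 3 lower genes of the 13 described here, with a median of 0.31, which ran from -0.17 to 0.55 over the references. *Adcy1*, the calcium-stimulated adenylyl cyclase of granule cells, rose 2.77-fold, from 0.39, -0.34 and -0.10 to 1.48, 1.52 and 1.36 (1.47 ± 0.17, adjusted p = 0.00229). *Camk2a*, a kinase needed for long-term plasticity, rose by 1.16, 1.70 and 1.42 (1.42 ± 0.14, adjusted p = 0.00178). In both genes all P20 pools lay above all P10 pools. *Akt1*, named by place, had the largest fall of the list and was lower by 0.62 ± 0.11 (adjusted p = 0.00869). Without the BIF pair it was -0.56 and not called (adjusted p = 0.075). *Prkg1*, which mediates cyclic GMP signals in Purkinje cells, gave 0.31 ± 0.11 (adjusted p = 0.0626), and -0.17 with *Gapdh* alone, but was called higher under 3 of the 8 references (0.55 with all 5).

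Of the 5 protein phosphatase genes, 3 were higher and 1 lower, with a median of 0.42, which ran from -0.06 to 0.66 over the references. *Ppp1r14a*, an inhibitor of protein phosphatase 1 that is abundant in maturing oligodendrocytes, rose 2.24-fold in the 3 pairs by 1.00, 1.23 and 1.27 (1.16 ± 0.12, adjusted p = 0.00178). *Ppp1ca*, a catalytic subunit of that phosphatase named by place, fell by 0.64 ± 0.14 (adjusted p = 0.0157). Without the BIF pair it was -0.54 and no longer called (adjusted p = 0.107).

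Scaffold, trafficking and synaptic proteins had 5 higher and 2 lower genes of 10, with a median of 0.21, between -0.28 and 0.45 over the references. *Synpo*, an actin-binding protein of dendritic spines, rose 2.08-fold (1.06 ± 0.13, adjusted p = 0.00275). *Grip1*, a scaffold that binds AMPA receptors, fell by 0.93, 1.30 and 1.92 in the GF, CONV and BIF pairs (-1.38 ± 0.22, adjusted p = 0.00555), while *Gria1*, *Gria3* and *Gria4* rose. *Nptx2*, a secreted protein that clusters AMPA receptors, fell by 0.93 ± 0.12 (adjusted p = 0.00277), with pairs from -0.96 to -0.89.

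Of the 8 adhesion and matrix genes, 1 was higher and 1 lower, with a median of -0.26. With *Gapdh* alone 0 were higher and 5 lower, and the median ran from -0.74 to -0.02 over the 8 references. *Pcdh8*, a protocadherin, fell 2.69-fold, from -4.79, -4.50 and -4.60 to -6.13, -6.32 and -5.73 (-1.43 ± 0.18, adjusted p = 0.00275). At P4 it stood at -3.41, -3.96 and -3.58. *Timp1*, an inhibitor of metalloproteinases, rose by 0.52 ± 0.14 (adjusted p = 0.0259), but was called under only 4 of the 8 references. With *Gapdh* alone its change was 0.0367 (adjusted p = 0.814). It was not called without the GF or the BIF pair (adjusted p = 0.143 and 0.108). *Reln*, the migration signal made by granule cells, was named by place and gave -0.25, 0.07 and -0.58 (adjusted p = 0.192).

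**Figure D4:**
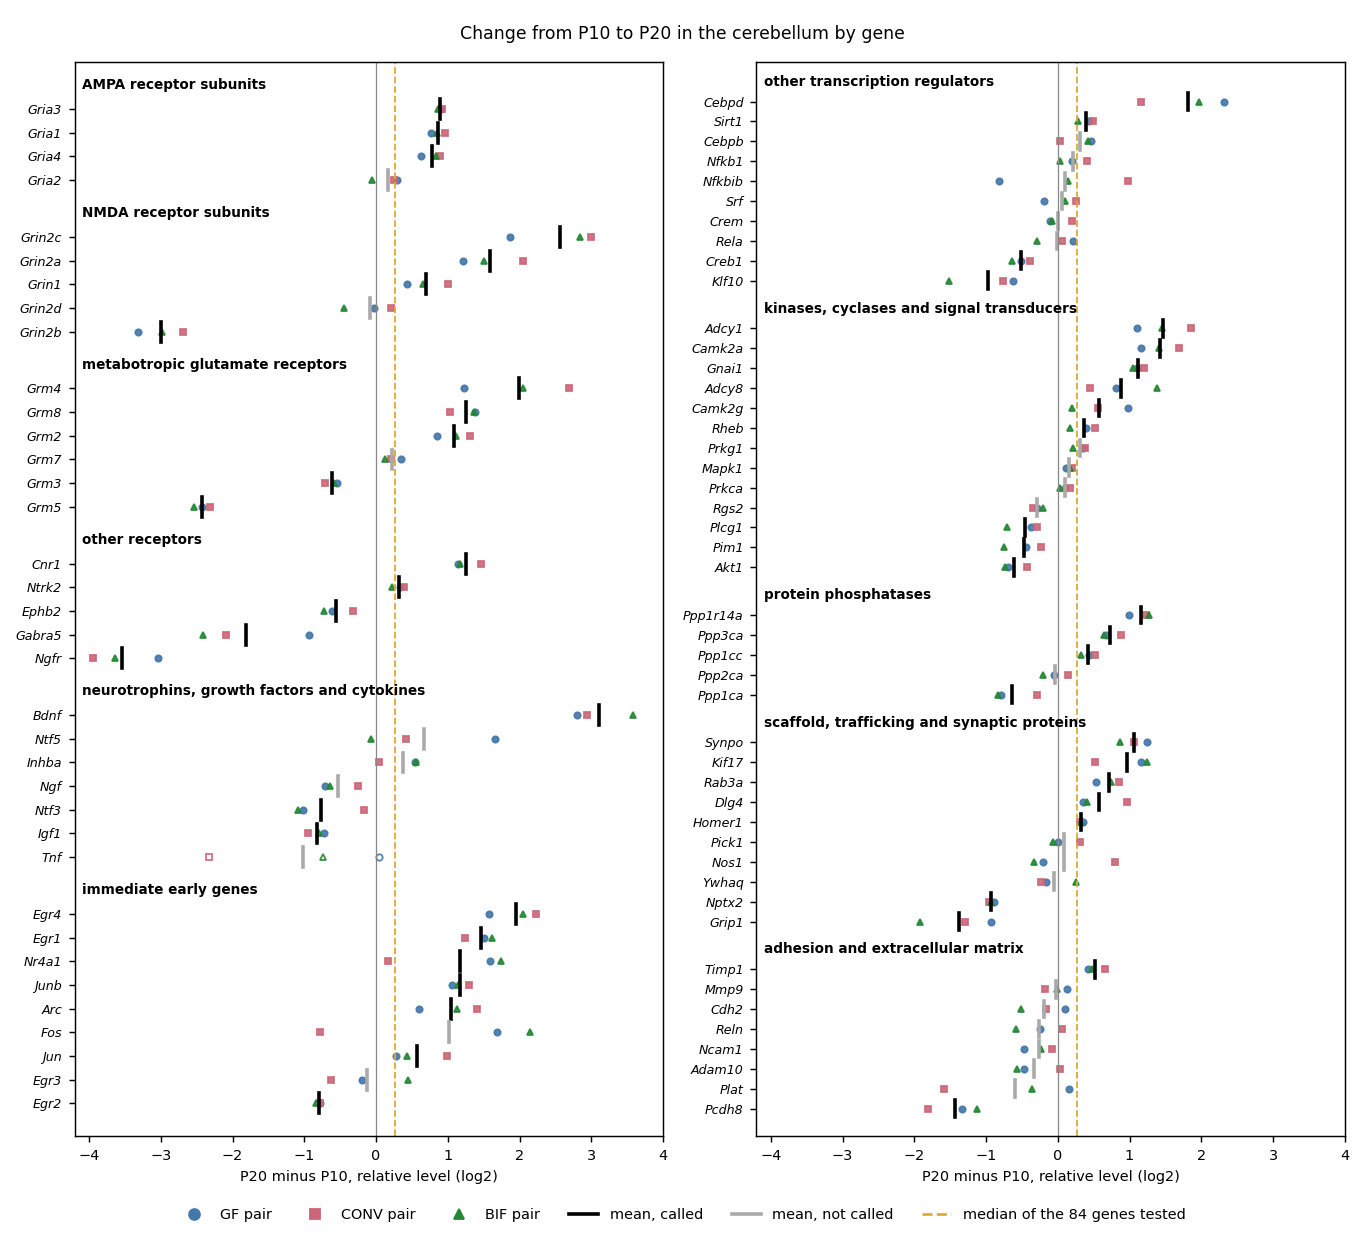
Change from P10 to P20 in the cerebellum of 82 pathway genes, as relative level at P20 minus P10 on the log2 scale, by gene list, with 1 point per treatment pair and a bar at the mean (black where called, grey where not; open points, CT at 35 in a pool of the gene). *Bdnf* (3.10) and *Ngfr* (-3.54) lie at the ends, and the dashed line is the median of 0.27 of the 84 genes tested.

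The few cell type markers of the array were read for the labelled tissue. Of 12 markers, 5 were higher, 4 lower and 3 did not pass. *Grm4*, a granule cell marker, was between 1.53 and 1.95 in the P20 cerebellum pools, between -3.91 and -3.51 in those of cortex and between -5.48 and -4.81 in those of hippocampus. *Gabra5*, abundant in forebrain neurons, was between -8.99 and -7.61 in the P20 cerebellum pools and between -0.51 and -0.31 in those of hippocampus. *Camk2a*, another forebrain marker, was at a mean of -1.78 in the cerebellum and 3.35 in the hippocampus at P20. The levels of these genes match the label. At P10 the means in cerebellum, cortex and hippocampus were -6.4, -0.79 and -0.075 for *Gabra5* and -3.20, 2.04 and 2.79 for *Camk2a*. *Nptx2*, also a forebrain marker, was lower in the cerebellum too, but by less at P10. Its means in that order were -5.06, -3.33 and -2.62 at P10 and -5.99, -1.91 and -2.82 at P20. Those of the Purkinje cell marker *Prkg1* were -4.545, -4.90 and -4.44 at P10 and -4.23, -5.37 and -4.71 at P20. At P10 *Prkg1* thus did not set the cerebellum apart from the hippocampus. Granule cell markers *Grin2c* and *Grm4* rose and *Reln* did not pass, the Purkinje cell marker *Prkg1* did not pass, and the oligodendrocyte marker *Ppp1r14a* rose. Of the glial markers *Ntrk2* rose, within the limits given above, and *Grm3* fell, and of the microglial ones *Igf1* fell and *Tnf* did not pass. The part of changing cell numbers in these changes was not tested.

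The same fit in the forebrain shows where the cerebellum differs. In the cortex, 28 genes were higher and 24 lower at P20, or 61.9% of the genes tested, and in the hippocampus 30 and 28, or 69.0%. These splits also turn with the reference, to 9 and 42 in the cortex with *Gapdh* alone, 32 and 13 there with all 5 reference genes, and 31 and 12 in the hippocampus without *B2m*. Pools of those regions also changed plate with age. The difference itself was tested on the 9 paired changes without a block on treatment, although the regions of a treatment share an isolator and can come from the same mice. Against the cortex, the cerebellum change was higher in 29 genes and lower in 12, or 48.8% in all, and against the hippocampus in 31 and 12, or 51.2%. Without the BIF pair these counts fell to 12 and 7 and to 14 and 7. With *Gapdh* alone the splits were 17 and 13 and 11 and 20. Against both regions in the same direction, the cerebellum change was higher in 23 genes and lower in 9.

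*Grin2b* showed the fall in the cerebellum (-3.32, -2.69 and -2.98), while its pairs in the cortex were -0.02, -0.31 and -0.11 and in the hippocampus 0.02, -0.19 and -0.01. The adjusted p of the difference was 4.43e-07 against the cortex and 4.68e-07 against the hippocampus. *Grm5* changed by -2.43 in the cerebellum, -0.50 in the cortex and -0.26 in the hippocampus (adjusted p of the difference 9.63e-07 and 4.68e-07). *Ngfr* fell in all 3 regions, with -3.54 in the cerebellum, -0.73 in the cortex and -1.09 in the hippocampus (adjusted p 1.28e-05 and 5.88e-05). *Nptx2* fell in the cerebellum by 0.93, was 1.42 higher in the cortex at P20, and changed by -0.20 in the hippocampus (adjusted p 4.43e-07 and 0.00115). *Ppp1r14a* rose everywhere, but by 1.16 in the cerebellum against 3.08 in the cortex and 2.85 in the hippocampus (adjusted p 0.000178 and 0.000511). Its cerebellum level was already -3.50 at P10, against -6.07 and -5.85, and the P20 means were -2.34, -2.99 and -3.00.

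Next are 4 of the largest differences in the positive direction. *Bdnf* changed by 3.10 in the cerebellum, 0.69 in the cortex and 0.30 in the hippocampus (adjusted p of the difference 0.000217 and 8.71e-05). *Grm4* changed by 1.99, -0.17 and -0.43 in that order (adjusted p 0.000217 and 9.51e-05). Of its forebrain values only that in the hippocampus passed the test. *Egr4* changed by 1.95, 0.56 and -0.24 (adjusted p 0.000309 and 1.79e-05). *Adcy1* rose by 1.47 in the cerebellum and 0.36 in the hippocampus and fell by 0.98 in the cortex (adjusted p 1.33e-06 against the cortex and 0.000544 against the hippocampus). These 9 genes were called against both regions under each of the 8 references and without each treatment pair.

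**Figure D5:**
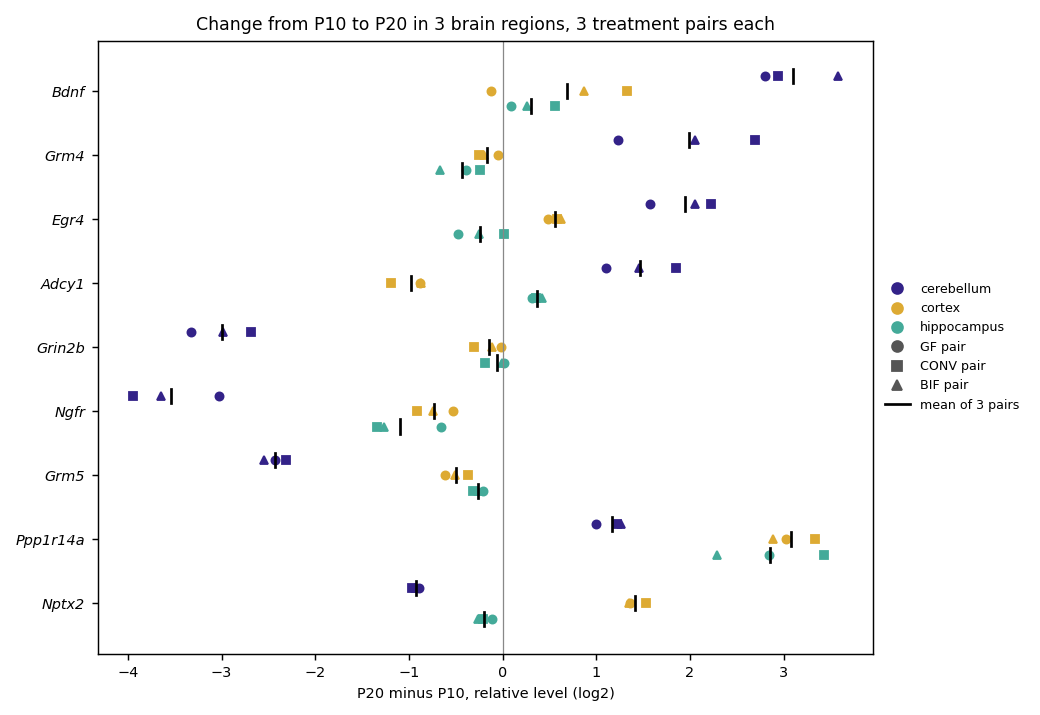
Change from P10 to P20 of the relative level on the log2 scale in cerebellum, cortex and hippocampus, for 4 genes with among the largest positive and the 5 with the largest negative mean difference between the cerebellum and both other regions. Each point is 1 treatment pair and each bar the mean of 3 pairs, and *Grin2b* lies near 0 in both forebrain regions and near -3.00 in the cerebellum.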

How the data were processed

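RNA was pooled per region, age and treatment and run once on the RT2 Profiler mouse synaptic plasticity array. The authors deposited raw CTs (a log2-like cycle scale, not normalized, limit of detection 35) for 96 wells and 27 pools. A second deposited table holds the authors' fold changes of colonized over GF pools and was not used. CTs at 35 were kept and treated as bounds. The technical SD of a CT over 3 control wells was 0 to 0.22 cycles. How many molecules lie behind a CT is unknown.

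Wells carry no names. Genes were assigned from the array order and checked against listed fold regulations within 3%. Of 84 genes, 47 matched a single well, 15 shared their value with other wells, 22 were named by place alone, and the wells of *Pick1* and *Pim1* could be swapped. Of the reference wells, *B2m* matched a shared value and *Actb*, *Gusb* and *Hsp90ab1* were named by place alone. *Gapdh* was also named by place, but the listed fold regulations were matched with its well as the reference. Every level rests on these names.

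The minus delta CT to *B2m*, *Gapdh*, *Gusb* and *Hsp90ab1* was fitted with limma 3.58.1 (R 4.3.3, lmFit, eBayes with trend) with treatment as a block, adjusted by Benjamini-Hochberg over 84 genes. Pairing follows treatment. Deviations of same-treatment pools at P10 and P20 correlated at 0.06 (GF), 0.00 (CONV) and 0.31 (BIF) across genes. Region differences used 9 paired changes in 1 fit with no treatment block. Tables were made with Python 3.11.15 and pandas 2.3.3.

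Named genes were all glutamate receptors, the 12 largest rises and 12 largest falls called with all pairs in 1 direction and all CTs under 35, the largest change each way in each of 11 lists, the reference genes, the 5 widest spreads between treatments, the 5 largest region differences each way and cell type markers. *Egr3*, *Jun*, *Junb* and *Arc* were named outside this rule, after their values were seen, as members of their list. Of the 84 genes, 82 are drawn or described, and all 84 stay in the fits and the overall counts. Members and lists were chosen with earlier results of these data known. Alternatives covered the reference, the block, the variance model, filters on low values, the call rule and each treatment pair left out. Promoter windows come from RefSeq (GRCm38.p6).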

Additional observations from a re-analysis of the deposited data

Results flagged for a closer look

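The change from P10 to P20 differed between the cerebellum and both other regions, by a test of the difference, in the 9 genes below. Cerebellum minus cortex and cerebellum minus hippocampus, in log2 units, were 2.42 ± 0.34 (SE) and 2.80 ± 0.34 for *Bdnf*, 2.16 ± 0.30 and 2.42 ± 0.30 for *Grm4*, 1.39 ± 0.21 and 2.18 ± 0.21 for *Egr4*, and 2.45 ± 0.18 and 1.11 ± 0.18 for *Adcy1*. On the negative side they were -2.85 ± 0.17 and -2.94 ± 0.17 for *Grin2b*, -2.81 ± 0.28 and -2.45 ± 0.28 for *Ngfr*, -1.93 ± 0.13 and -2.17 ± 0.13 for *Grm5*, -1.92 ± 0.26 and -1.69 ± 0.26 for *Ppp1r14a*, and -2.35 ± 0.13 and -0.73 ± 0.13 for *Nptx2*. The plates of the 3 regions differed at each age, and their part was not tested.

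The well for mouse genomic DNA, a control that no comparison used, gave a CT of 33.81 in the BIF pool at P20 and stood at the limit of 35 in the other 5 pools of these ages. The same BIF pool had the highest mean reference CT, 22.41 against 21.62 to 21.96. Its part in the calls was not tested beyond leaving out the BIF pair.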

How the results depend on the processing

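Main counts in the cerebellum were 37 higher and 18 lower. With *Gapdh* alone they were 24 and 33, and at 1.5-fold in all 3 pairs with no test 23 and 10. With a treatment pair left out they ran from 25 to 40 and from 10 to 22, lowest without BIF. Dropping the treatment block gave 36 and 18. In the cortex *Gapdh* alone gave 9 and 42, all 5 reference genes 13 lower and the pathway median 12 higher. In the hippocampus all 5 gave 15 lower and the reference without *B2m* 12 lower. These forebrain alternatives were chosen after seeing the data. The region difference counts with *Gapdh* alone were 17 higher (cortex) and 11 and 20 (hippocampus). With a pair left out they ran from 12 to 30 higher and 7 to 12 lower against the cortex, and from 14 to 26 and 7 to 12 against the hippocampus. With treatment as a block, an alternative also chosen after seeing the data, they were 30 and 14 against the cortex and 33 and 12 against the hippocampus, and the 9 genes flagged above were called against both.

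The median change of the 84 genes, 0.27, became -0.22 with *Gapdh* alone, 0.50 with all 5 reference genes, 0.39 without *B2m*, 0.43 without *Gapdh*, 0.14 without *Gusb*, 0.11 without *Hsp90ab1* and 0.14 with the pathway median, and 0.23 to 0.29 with a pair left out. The shift follows from the reference.

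Of 45 named genes, 35 were called, and 27 of these were called in all of the 15 settings that tested them. The sign turned with *Gapdh* alone for *Ntrk2* (-0.17), *Gria2* (-0.32), *Grm7* (-0.26), *Prkg1* (-0.17) and *Nfkbib* (-0.38). *Nfkbib* was also -0.0222 without *Gusb*, -0.0556 without *Hsp90ab1* and -0.025 with the pathway median, and ran from -0.34 (without CONV) to 0.56 (without GF). *Grin2d* was 0.15 with all 5 reference genes, 0.0367 without *B2m* and 0.0744 without *Gapdh*, and ran from -0.24 (without CONV) to 0.0913 (without BIF). Calls were lost with *Gapdh* alone for *Grin1*, *Nr4a1* and *Timp1*, with all 5 reference genes for *Ntf3*, without *Gapdh* for *Ntf3* and *Ppp1ca*, without *Gusb* and without *Hsp90ab1* for *Nr4a1*, *Ntrk2* and *Timp1*, with the pathway median for *Ntrk2* and *Timp1*, and without the trend for *Ntrk2*. Calls were gained with all 5 reference genes for *Gria2*, *Grm7* and *Prkg1*. Without *B2m*, without *Gapdh* and with the spread pooled over regions they were gained for *Grm7* and *Prkg1*. Dropping the block added *Prkg1*, and the pathway median added *Fos* and *Plat*. With *Gapdh* alone, calls as lower were gained for *Grin2d*, *Reln* and, with its sign turned, *Gria2* (adjusted p = 0.0234). Leaving out GF lost *Egr2*, *Ntrk2* and *Timp1* and added *Fos*, *Plat* and *Tnf*, leaving out BIF lost *Akt1*, *Egr2*, *Nr4a1*, *Ntf3*, *Ntrk2*, *Ppp1ca* and *Timp1*, and leaving out CONV lost none and added *Fos*, *Ntf5* and *Reln*. *Junb* and *Jun*, outside these 45, were also lost without BIF (adjusted p = 0.0519 and 0.0757). With 2 pairs each gene keeps 1 residual degree of freedom, so these calls rest mostly on the variance shared across genes. The causes were not tested.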
